A study of Arabidopsis thaliana with 60 samples.

Results

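Chloroplast-encoded genes were taken as every row of the deposited read count table whose gene ID starts with ATCG, the prefix of the Arabidopsis plastid genome. There were 79 such rows among 25036 genes. Of these, 73 passed the filter on low counts and were tested, with between 419 and 1629693 counts each over all libraries. The other 6 rows (ATCG00830, ATCG00860, ATCG00900, ATCG01000, ATCG01240 and ATCG01310) held between 1 and 16 counts each and are counted here as not measured.

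The libraries came from adult leaves of Arabidopsis thaliana Col-0 plants with the genotype dde2 ein2 pad4 sid2 Ed-AvrRpt2, and untouched and Mock leaves carried the same mutations and the same transgene. DDE2, EIN2, PAD4 and SID2 act in jasmonate synthesis, ethylene signalling, lipase-like defence signalling and salicylic acid synthesis. The transgene makes AvrRpt2, a bacterial effector protease that sets off effector-triggered immunity, when estradiol is given. Plants were 4 weeks old and grew at 22 °C and 75% relative humidity in 12 h of light and 12 h of dark. Leaves 7 to 9 were infiltrated, 3 to 4 h after subjective dawn, with 0.1% ethanol (Mock), 1 µM flg22, 10 µM estradiol with 0.1% ethanol (Ed), or 1 µM flg22 and 10 µM estradiol with 0.1% ethanol (flg22+Ed). The peptide flg22 is the flagellin epitope that sets off pattern-triggered immunity, and no ethanol is listed for the solution that held it alone. Each library pooled 2 leaves from each of 2 plants. Leaves labelled 0 min were untouched, and the others were collected at 60, 120, 180 and 300 min, which gave 20 groups of 3 libraries, 1 from each of 3 independent experiments. The comparisons below show how chloroplast transcripts stood under each elicitor alone and under both together.

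The plastid genome is a remnant of a cyanobacterial genome. It encodes core subunits of the photosystems, the cytochrome b6f complex, the ATP synthase and the NDH complex, the large subunit of Rubisco, ribosomal proteins, a bacterial-type RNA polymerase, and single subunits of acetyl-CoA carboxylase and of the Clp protease. The remaining subunits of these complexes are made from nuclear genes and imported. Plastid genes are transcribed in long multi-gene units by the plastid-encoded polymerase, which needs nuclear-encoded sigma factors, and by a phage-type polymerase encoded in the nucleus. Their transcripts are cut and trimmed by nuclear-encoded nucleases and RNA-binding proteins, and A tails on plastid RNA are generally short-lived marks of decay rather than of stability. The libraries were made with Smart-3SEQ, a 3′-end method that starts from the poly(A) stretch of an RNA.

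The files pair no ATCG ID with a gene name. The RefSeq annotation of TAIR10.1 cites a few of them in notes on related nuclear genes, which gives ATCG00430 as photosystem II reaction center protein G, ATCG00530 as the CemA-like proton extrusion protein, ATCG00660 as ribosomal protein L20, ATCG00670 as the plastid-encoded Clp protease subunit and ATCG01310 as ribosomal protein L2, while ATCG00420 appears only as the source of a nuclear pseudogene. These names are the wording of those notes, and no other source for them was used. The other IDs described below are given by ID alone. The same annotation lists 131 genes on the 154478-base plastid genome, of which 87 are protein-coding, 37 are tRNA and 7 are rRNA genes. For 3 of the named genes the 60 bases that hold the longest run of A on the coding strand are shown, since the assay reads RNA from A stretches. The run is in capitals, and the sequences are from RefSeq, TAIR10.1, read 5′ to 3′ on the gene's strand.
clpP, Pltd:70377-70436, minus strand: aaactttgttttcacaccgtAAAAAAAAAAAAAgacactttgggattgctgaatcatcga
rpl20, Pltd:68512-68571, minus strand: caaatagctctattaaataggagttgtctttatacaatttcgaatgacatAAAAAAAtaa
cemA, Pltd:60878-60937, plus strand: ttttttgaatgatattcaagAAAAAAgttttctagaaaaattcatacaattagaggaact
The run of 13 A in clpP lies in an intron, the other 2 runs (7 and 6 bases) lie in coding exons, and the run in rpl20 ends 3 bases before the end of the annotated gene. A run of at least 6 A occurred in 58.6% of the 87 protein-coding plastid genes, one of at least 7 in 43.7% and one of at least 12 in 6.9%. The counts carry no positions, so whether reads start at these runs was not tested. The gene for ribosomal protein L2 stands at 2 places with identical sequence over 1507 bases, and its row held 1 count in all. How reads that match 2 places were counted is not given in the sources used here.

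Chloroplast rows took 9122749 of 202144871 counts, or 4.51%, and between 3.13 and 6.40% of a library (median 4.48%). Levels are given as CPM, a gene's counts scaled to a library total of 1 M counts. They are not divided by length, so the order of rows is an order of counts. ATCG00470 took the most counts, with a mean of 7923 CPM and 18.0% of chloroplast counts, followed by ATCG00020 with 3892 CPM and ATCG01020 with 3314 CPM. ATCG00330, ATCG00220, ATCG00440, ATCG00540, ATCG01040, ATCG00380 and ATCG00740 came next, with means from 2772 down to 1071 CPM. These 10 rows held 63.8% of chloroplast counts and were the 10 above 1000 CPM, while 48 rows had a mean above 100 CPM.

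Group means of the chloroplast share ran from 3.64 to 5.39%, and single libraries from 3.13 to 6.40%. The share was 4.74% ± 0.98 (SD, n = 3) in untouched leaves of the Mock series, 3.64% ± 0.40 in Mock leaves at 180 min and 4.46% ± 0.17 at 300 min. The highest group mean was 5.39% ± 1.05 under flg22+Ed at 60 min, and at 300 min the same treatment gave 3.75% ± 0.54, with libraries at 3.13, 4.03 and 4.09%. Those 3 libraries lay below the 3 Mock libraries of the same time, at 4.31, 4.41 and 4.65%. The 4.65% is from the library of experiment 2 that went against its time label on clock genes (described below), and the other 2 were also above all 3 flg22+Ed libraries. A share falls when other RNA rises, and in a pooled leaf sample fewer cells of a type and less RNA per cell cannot be told apart.

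**Figure D1:**
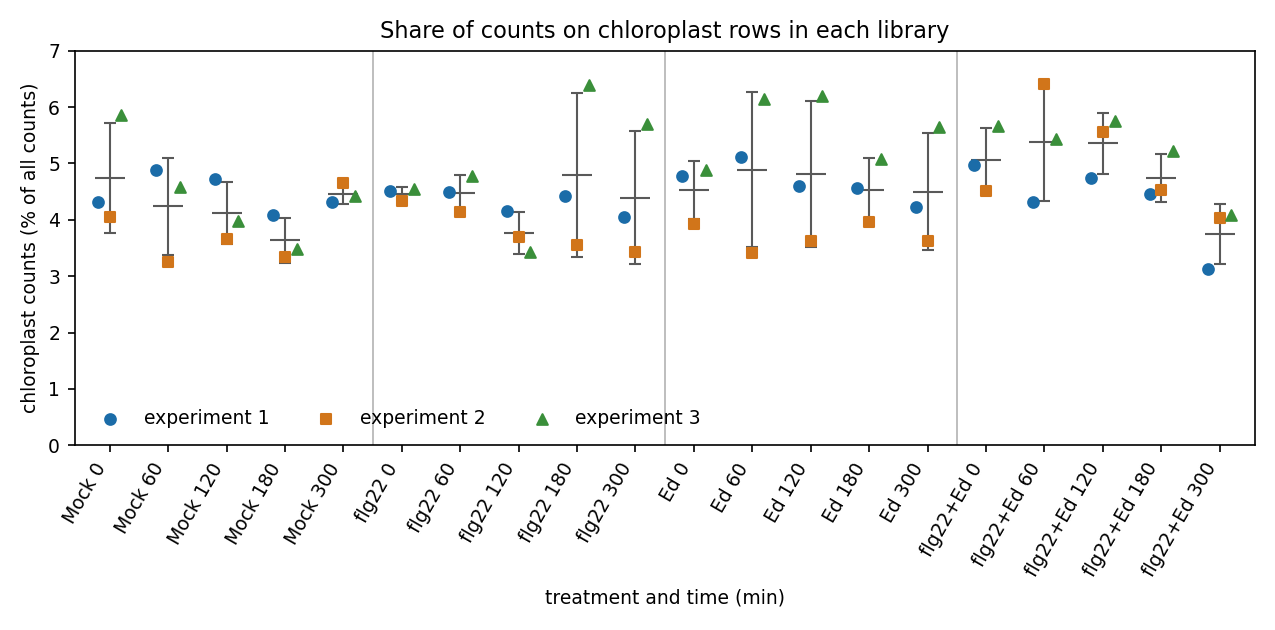
Share of all counts on chloroplast rows (%, vertical axis) in each of the 60 libraries, by treatment and time (min), with markers for the 3 experiments and grey bars for the group mean ± SD (n = 3). All libraries lie between 3.13 and 6.40%, and the lowest group mean is 3.64%, for Mock at 180 min.

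Sets of libraries stood apart in chloroplast rows before any comparison was made, and these sets were recognised after the counts had been seen. In experiment 3 the 8 libraries of Mock at all times and of flg22 at 0 to 120 min had totals of 1.77 to 2.58 M counts. The other 12 libraries of experiment 3 had 3.25 to 4.22 M counts. ATCG00070 was at 27.9 to 44.9 CPM in the first set and at 68.4 to 96.2 CPM in the second, with no overlap, and at 17.9 to 64.6 CPM in experiment 1. Untouched leaves of experiment 3 showed the same step, with 41.9 CPM (Mock series) and 34.9 CPM (flg22 series) in the first set against 96.2 CPM (Ed series) and 74.8 CPM (flg22+Ed series) in the second. In experiment 2 the 4 libraries of flg22+Ed at 60 to 300 min had totals of 1.46 to 2.47 M counts and held ATCG00020 at 3034 to 9066 CPM, above the 706 to 2552 CPM of the other 16. These 4 libraries had a median chloroplast share of 5.05%, against 3.68% in the other 16. In experiment 3 that median was 5.66% in the second set and 4.48% in the first. The group with the highest mean share, flg22+Ed at 60 min, has its libraries of experiments 2 and 3 in the higher sets. In experiment 1 all 20 libraries had 2.97 to 4.67 M counts. Since every Mock library of experiment 3 is in the first set, treatment and set cannot be told apart for Ed, flg22+Ed and the later flg22 times in that experiment, so values are given by experiment below. Separately, 4 libraries of experiment 2 went against their time labels on 19 clock genes (Mock at 0, 60 and 300 min and flg22 at 0 min). The library labelled Mock at 300 min correlated at r = 0.996 with untouched leaves and at 0.0658 with the other Mock libraries of 300 min, and results are also given without these 4.

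**Figure D2:**
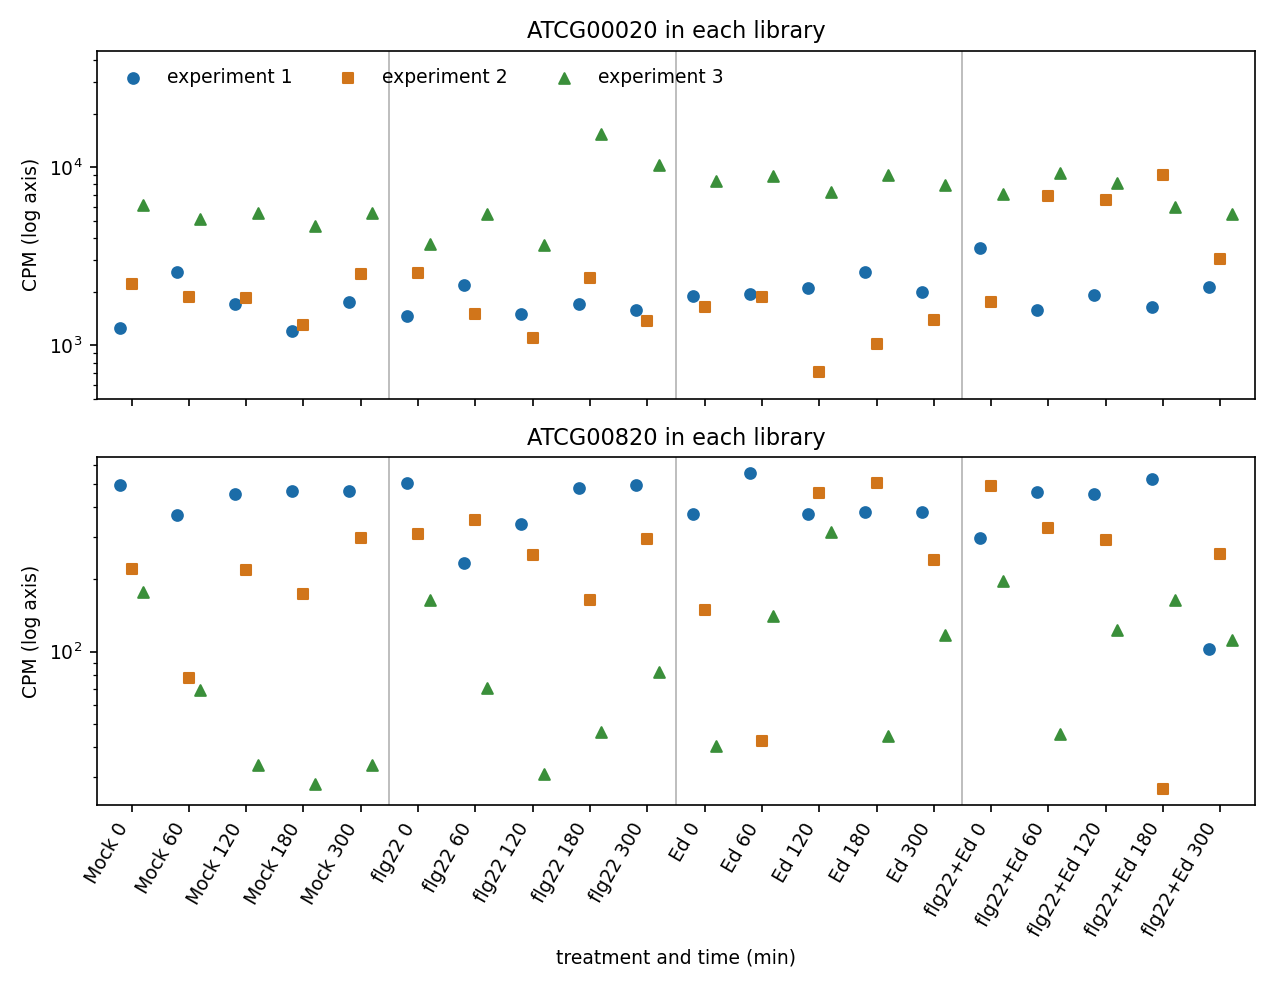
CPM (log axis) of ATCG00020 (top) and ATCG00820 (bottom) in each library, by treatment and time (min), with markers for the 3 experiments. ATCG00020 is highest in experiment 3 (3659 to 15410 CPM) and steps up under flg22+Ed from 60 min in experiment 2, while ATCG00820 spans 26.7 to 555 CPM, with 103 to 555 CPM in experiment 1.

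For the median chloroplast gene, the experiments took as large a part of the variation as the treatment and time groups. A split of the variation of log2 CPM gave a median of 29.3% between the 3 experiments and 25.95% between the 20 groups for the 73 chloroplast genes, against 2.47% and 65.7% for nuclear genes. By degrees of freedom alone the 3 experiments would take 3.39% and the 20 groups 32.2%. The share of the experiments exceeded that of the groups in 41 of the 73 chloroplast genes (56.2%) and in 1.27% of nuclear genes. The median SD between libraries of a group was 0.66 on the log2 scale for chloroplast genes, 0.35 for nuclear genes and 0.32 for nuclear genes of similar level. ATCG00650 stood at the other end, with 73.5% of its variation between groups and 6.41% between experiments. ATCG00380 (59.6%), ATCG00040 (57.2%) and ATCG01020 (56.2%) followed it, and ATCG01020 had the smallest ratio of highest to lowest library, 2476 to 4808 CPM over all libraries.

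**Figure D3:**
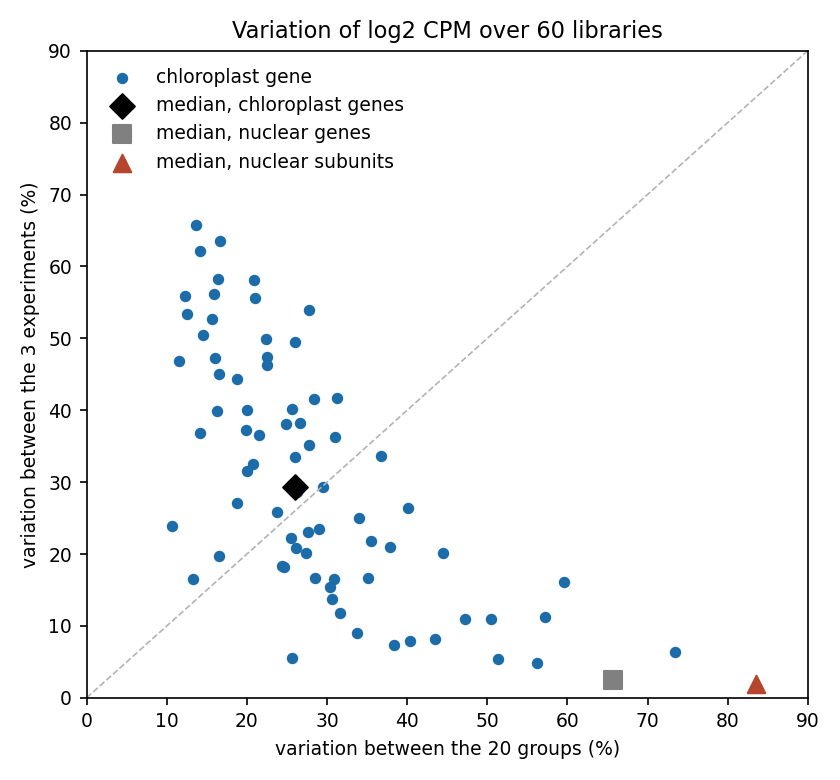
Share of the variation of log2 CPM (%) between the 20 groups (horizontal) and between the 3 experiments (vertical) for each of the 73 chloroplast genes, with the median of chloroplast genes, of nuclear genes and of nuclear subunits of plastid complexes. The chloroplast median lies at 25.95 and 29.3%, the nuclear subunits at 83.6 and 1.88%.

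Under flg22 alone, 2 of the 73 chloroplast genes rose at 180 min (2.74%), against 14% of all 16763 genes that rose in that comparison. A gene was called at an adjusted p under 0.05 in edgeR's quasi-likelihood F test with Benjamini-Hochberg adjustment over all genes, and differences are log2 values ± a standard error worked back from the F statistic. ATCG00710 was at 41.7, 33.3 and 32.5 CPM in Mock leaves of experiments 1, 2 and 3 and at 62.7, 34.6 and 87.9 CPM under flg22. All 3 flg22 values were above the 2 lower Mock values, but the flg22 library of experiment 2 lay within the Mock range. The difference was 0.86 ± 0.30 (adjusted p = 0.0331). ATCG00700 had 3, 2 and 2 counts in the Mock libraries and 8, 4 and 41 under flg22, a fitted difference of 2.92 ± 0.96 (adjusted p = 0.0239) that depends on few counts. Without experiment 3 neither was called (adjusted p = 0.357 and 0.187), and limma-voom called neither. The median of the 73 differences was 0.59, against -0.06 over all genes. By experiment that median was 0.19, 0.06 and 1.09.

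At 60, 120 and 300 min under flg22, edgeR called 0 chloroplast genes, while 9.83%, 10.2% and 40.1% of all genes were called. DESeq2 and limma-voom also called 0 at these times, and 0, 0 and 2 of the 73 had an unadjusted p under 0.05. At 300 min the lowest adjusted p was 0.0580, and the replicate block, which pairs libraries of an experiment, called 2 as lower. By experiment the 300 min median was -0.40, -0.52 and 0.83, with 18, 3 and 70 of the 73 genes above 0. The -0.52 is against the library of experiment 2 labelled Mock at 300 min, which went against its time label on clock genes. That value may not stand for 300 min. Without experiment 3, 8 chloroplast genes were lower and 0 were higher, and with a term for the library sets 17 were lower and 0 higher. Both fits keep that Mock library of experiment 2. In this paragraph and below, counts from alternative fits are given without the share of all genes called in the same fit. In experiment 3 the Mock and flg22 libraries of that time belong to different sets, and treatment and set cannot be told apart in it.

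Under estradiol alone no chloroplast gene was called. EdgeR, DESeq2 and limma-voom each called 0 of 73 at 60, 120, 180 and 300 min, against 0.00597%, 0.0835%, 4.03% and 24.1% of all genes in edgeR, and 1, 0, 0 and 0 of the 73 had an unadjusted p under 0.05. The median of the 73 differences was 0.35, 0.45, 0.44 and 0.04 at these times, with a median error of 0.53 to 0.54. At 300 min it was -0.14 in experiment 1, -0.47 in experiment 2 and 0.92 in experiment 3. The -0.47 is against the library labelled Mock at 300 min that went against its time label on clock genes. That value may not stand for 300 min. In experiment 3 between 68 and 71 of the 73 genes were above Mock at every time, whereas in experiment 1 between 18 and 36 were.

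When flg22 and estradiol were given together, the median chloroplast gene was above Mock at 60 and 120 min in 2 of the 3 experiments (-0.33, 1.27 and 0.37, then -0.09, 0.92 and 0.97 in experiments 1, 2 and 3). The 1.27 is against the library labelled Mock at 60 min that went against its time label on clock genes. It correlated there at r = 0.997 with untouched leaves and at 0.893 with the other Mock libraries of 60 min. That value may not stand for 60 min. At 60 min edgeR, DESeq2 and limma-voom called 0 chloroplast genes (6.84% of all genes in edgeR), and 4 had an unadjusted p under 0.05. At 120 min 1 of 73 rose (1.37%), against 9.97% of all genes that rose, and at 180 min 1 of 73 (1.37%), against 18%. Both calls were ATCG00050. At 120 min it was at 16.6, 15.1 and 18.4 CPM in Mock leaves and at 33.1, 40.8 and 42.9 CPM under flg22+Ed, so the 2 groups did not overlap. The difference was 1.25 ± 0.35 (adjusted p = 0.0120), and in experiment 1, whose libraries did not split into sets, it was 0.98. At 180 min ATCG00050 was at 19.1, 14.6 and 18.6 CPM in Mock and at 25.8, 44.6 and 30.3 CPM under flg22+Ed, again without overlap, a difference of 1.03 ± 0.36 (adjusted p = 0.0226).

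The replicate block raised the count at 180 min from 1 to 13, all higher, and that at 120 min from 1 to 2. The share of all genes called with the block is not given here, so the 13 has no background beside it. The median over the 73 genes at 180 min was 0.73, and by experiment it was 0.20, 0.50 and 1.10. Leaving out the 4 low-total libraries of experiment 2 ended the call at 180 min (adjusted p = 0.165 for ATCG00050) and left that at 120 min (0.0257). A term for the library sets in place of the block gave medians of 0.04 at 120 min and 0.20 at 180 min, with 0 calls at each. In experiment 3, and in experiment 2 for flg22+Ed, treatment and set coincide and cannot be told apart.

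At 300 min under flg22+Ed 4 of the 73 chloroplast genes fell (5.48%) and 0 rose, against 30.5% of all genes that fell. ATCG00650 was at 581, 570 and 260 CPM in Mock leaves of experiments 1, 2 and 3 and at 288, 294 and 290 CPM under flg22+Ed. Its flg22+Ed values were nearly equal, and the low Mock value of experiment 3 made the groups overlap. The difference was -0.76 ± 0.23 (adjusted p = 0.00366), and it fell in experiments 1 and 2 and not in experiment 3 (-1.01, -0.95 and 0.15). ATCG00040 was at 750, 1180 and 725 CPM in Mock and at 352, 619 and 579 CPM under flg22+Ed, with no overlap and a difference of -0.86 ± 0.34 (adjusted p = 0.0281). ATCG00190 was at 118, 156 and 77.8 CPM in Mock and at 45.2, 102 and 63.9 CPM under flg22+Ed, lower in all 3 experiments though the groups overlapped, with a difference of -0.82 ± 0.36 (adjusted p = 0.0459). ATCG00380, among the 10 rows with most counts, went from 1223, 1570 and 1034 CPM to 917, 1033 and 923 CPM, with no overlap and a difference of -0.49 ± 0.18 (adjusted p = 0.0206).

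The median of all 73 differences at 300 min was -0.22, against -0.08 over all genes, with 19 genes above 0, and the extremes were ATCG00040 and ATCG00210 (1.04, not called). By experiment the median was -0.66, -0.31 and 0.68, so experiment 3 again had the opposite sign. The differences of experiment 2 at this time, in the 4 calls too, are against the Mock library that went against its time label. Without experiment 1, 2 or 3 the count was 0, 1 or 2, and a fit of only the groups compared called 0. Without the 4 libraries at odds on clock genes 1 of the 4 calls was left, ATCG00650 (adjusted p = 0.0260). With a term for library sets 37 of the 73 genes were lower and 0 higher, with a median of -0.72. The share of all genes called lower in this fit is not given here, so the 37 has no background beside it. The sets were defined after the counts were seen, and since they coincide with treatment in experiments 2 and 3, this fit leans on experiment 1 and is no independent check of it.

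**Figure D4:**
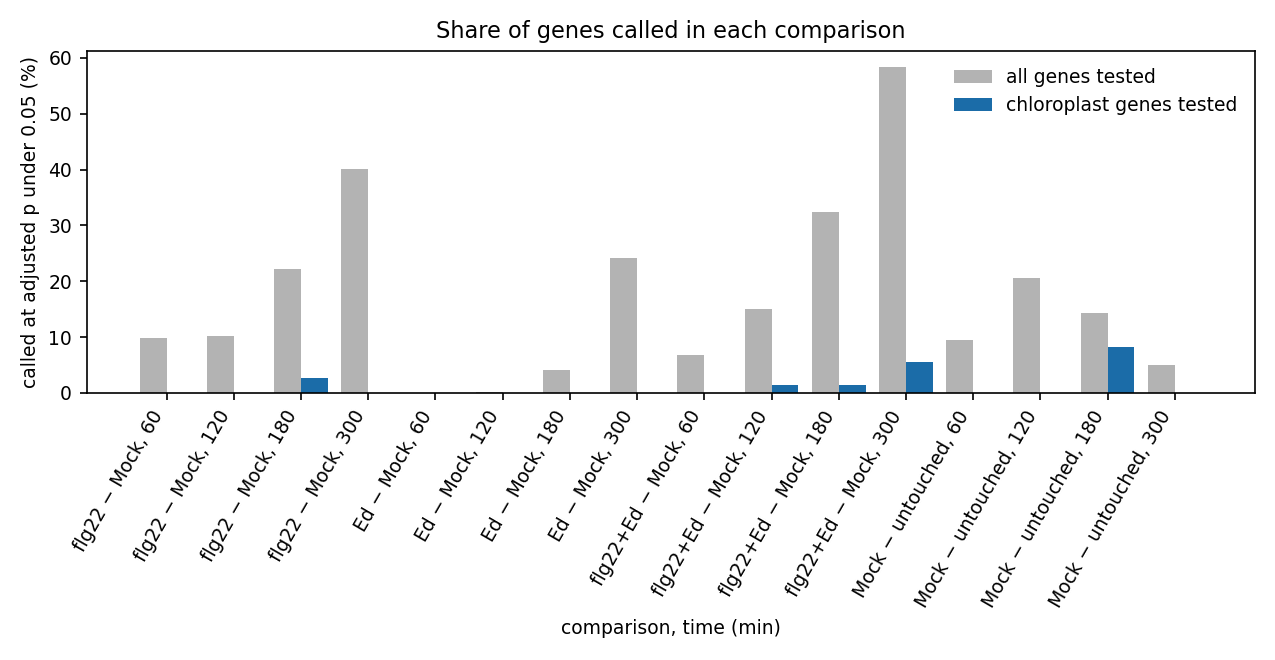
Percent of genes called at an adjusted p under 0.05 in either direction in each comparison and time (min), for all 16763 genes tested (grey bars) and for the 73 chloroplast genes (blue bars). At 300 min of flg22+Ed the bars stand at 58.4 and 5.48%, and the highest chloroplast bar is 8.22%, for Mock minus untouched at 180 min.

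The nuclear genes for the other subunits of the same complexes did otherwise in the same libraries. A list of 76 nuclear subunits (photosystems I and II, cytochrome b6f and ATP synthase, NDH complex, Rubisco small subunits, Clp protease core and acetyl-CoA carboxylase, plastid ribosome) was followed. At 300 min of flg22+Ed all 76 fell, with a median of -1.87 and a range from -3.73 to -0.61. The largest fall was NDHM of the NDH complex, at -3.73 ± 0.42 (adjusted p = 4.52e-10). RBCS1B, a Rubisco small subunit, fell by 3.53 on the log2 scale (adjusted p = 1.03e-08), PSBO2 of photosystem II fell by 2.66 (8.39e-12) and RPL12C of the plastid ribosome fell by 3.04 (1.69e-11). The 95% interval lay above -1.87 for 65 of the 73 chloroplast genes and held that value for the other 8. These intervals are from the fit without a library set term, and treatment and set coincide in experiments 2 and 3. The chloroplast median was -0.66, -0.31 and 0.68 in experiments 1, 2 and 3. Error differs between the lists, with a median of 0.54 for chloroplast genes and 0.22 for nuclear subunits, and the smallest fall called among chloroplast genes was -0.49, for ATCG00380 with its error of 0.18.

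The difference between the lists over time was not tested. At 60 min of flg22+Ed 0 of the 76 nuclear subunits were called, at 120 min 16 fell and at 180 min 60 fell, with medians of -0.05, -0.44 and -0.66. The chloroplast medians at these times were 0.55, 0.63 and 0.73 over experiments that differed in sign at 60 and 120 min, and 0.03, 0.04 and 0.20 with the library set term. At 300 min the chloroplast median also lay lower with that term than without it, as given above. Under flg22 alone 70 of 76 nuclear subunits fell at 300 min (median -0.98) and 0 of 73 chloroplast genes were called, against 2 lower with the replicate block, 8 without experiment 3 and 17 with the library set term. The counts from these other fits have no share of all genes beside them. Under estradiol alone 19 of 76 fell at 300 min (median -0.41) against 0 of 73. The nuclear medians at 300 min of flg22+Ed were alike in the experiments, at -1.63, -1.55 and -2.10. These comparisons share their Mock libraries, at 60 and 300 min also those of experiment 2 that went against their time labels on clock genes.

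**Figure D5:**
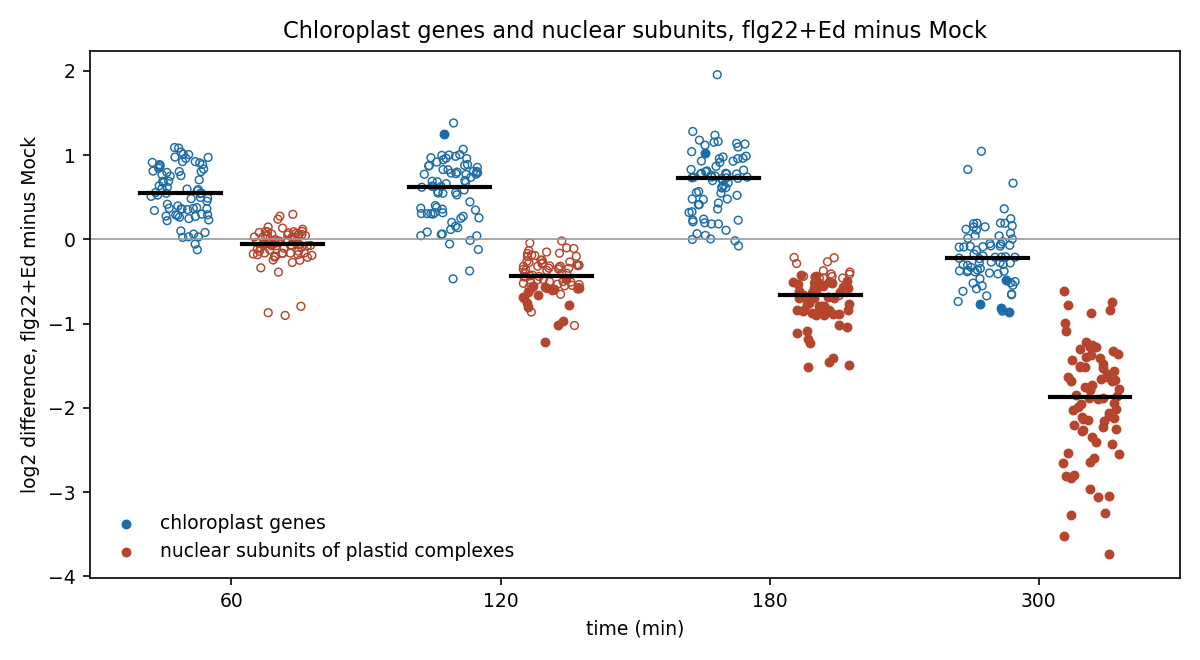
Log2 difference of flg22+Ed minus Mock (vertical axis) at each time (min) for the 73 chloroplast genes (blue) and 76 nuclear subunits of plastid complexes (red), filled where the adjusted p was under 0.05, with a black line at the median. At 300 min the medians are -0.22 and -1.87, and all 76 nuclear points are filled against 4 chloroplast points.

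Nuclear genes for the plastid transcription and RNA machinery fell with the subunits. Among 8 genes for sigma factors and the phage-type polymerases, 6 fell at 300 min of flg22+Ed, with a median of -2.68. SIG6, a sigma factor of the plastid polymerase, fell by 3.16 (adjusted p = 1.86e-09). SIG5, a light- and stress-responsive sigma factor, fell by 2.69 under flg22+Ed, by 2.51 under flg22 and by 2.38 under estradiol at that time (adjusted p = 0.000231, 0.00088 and 0.00273). All 12 listed polymerase-associated proteins fell (median -1.92, largest PAP7 at -2.79), as did all 10 listed genes of plastid RNA decay and stability (median -2.23, largest PNP, the plastid polynucleotide phosphorylase, at -2.87). Markers of mesophyll and epidermis were mostly lower in these leaves too, and most markers of guard cells and phloem were not called lower. The mesophyll markers include RBCS1A, a Rubisco small subunit gene that is also on the list of nuclear subunits, so these lists overlap. The summed level of 4 mesophyll markers was 30530 to 33050 CPM in Mock leaves at 300 min and 7641 to 10800 CPM under flg22+Ed, with 4 of 4 called lower, while 3 of 4 epidermis, 1 of 5 guard cell and 0 of 3 phloem markers were. No listed marker was at 0 in all libraries, and the part of cell types in the chloroplast values was not tested.

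Infiltration and time of day were compared by Mock leaves against all 12 untouched libraries, and these cannot be told apart. In experiment 2 the untouched libraries of the Mock and flg22 series went against their time label on clock genes. On those genes the first was most like Mock leaves of 60 min (r = 0.994) and the second like Mock leaves of 300 min (0.9495). Both are in the untouched ranges and medians below. In experiment 3 every Mock library is in the first set, while untouched libraries of the Ed and flg22+Ed series are in the second. Library set therefore enters this comparison too in that experiment. At 180 min 6 of 73 chloroplast genes fell (8.22%) and 0 rose, against 5.58% of all genes that fell, so their share was near that background. ATCG01120 was at 65.2, 36.7 and 36.7 CPM in Mock at 180 min and at 54.4 to 127 CPM in untouched leaves (median 87.9), so only the Mock library of experiment 1 was within the untouched range. The difference was -0.99 ± 0.31 (adjusted p = 0.0224). ATCG00040 was at 814, 487 and 481 CPM against 736 to 1501 CPM (median 1037), a difference of -0.94 ± 0.29 (adjusted p = 0.0210). ATCG00190 was at 101, 57.5 and 58.1 CPM against 78.1 to 183 CPM (median 125), a difference of -0.87 ± 0.30 (adjusted p = 0.0421).

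ATCG00540 was at 1577, 1221 and 1144 CPM in Mock leaves at 180 min and at 1609 to 3354 CPM in untouched leaves (median 2140), with no overlap. The difference was -0.85 ± 0.27 (adjusted p = 0.0291). ATCG00380 was at 1304, 1134 and 786 CPM against 992 to 1639 CPM (median 1398), a difference of -0.50 ± 0.15 (adjusted p = 0.0185). The sixth to fall was ATCG00660, ribosomal protein L20, whose sequence is shown above. ATCG00660 was named after its values were seen. It was at 231, 118 and 107 CPM against 161 to 374 CPM in untouched leaves (median 247), a difference of -0.82 ± 0.29 (adjusted p = 0.0490). All 6 were lower in each of the 3 experiments, and the median of the 73 differences was -0.20, -0.33 and -0.88 in experiments 1, 2 and 3. The replicate block called 11 as lower, as did the fit without the 4 libraries at odds on clock genes. The share of all genes called lower in these fits is not given here. Without experiment 1 or without experiment 3 the count was 0. SIG5 fell by 2.48 in the same comparison (adjusted p = 0.00141), while 2 of the 76 nuclear subunits fell.

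At 60, 120 and 300 min after Mock infiltration edgeR called 0 chloroplast genes, against 9.44%, 20.6% and 4.94% of all genes. DESeq2 called 0, 1 and 0 and limma-voom 0 at each time, and 0, 3 and 1 of the 73 had an unadjusted p under 0.05. The replicate block called 1 as lower at 120 min. At 300 min the median was -0.07, 0.30 and -0.84 by experiment. The 0.30 is from the experiment whose library labelled Mock at 300 min went against its time label. At 60 min the Mock library of that experiment, like untouched leaves on clock genes, enters the comparison too.

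Estradiol against flg22 gave 0 chloroplast calls in edgeR, DESeq2 and limma-voom at 180 min and at 300 min, where 9.65% and 17.4% of all genes were called and 0 of the 73 had an unadjusted p under 0.05. At 300 min 36 of the 76 nuclear subunits were higher under estradiol than under flg22. The interaction of flg22 and estradiol, the difference by which the joint treatment departs from the sum of the single ones on the log2 scale, was likewise called for 0 of 73 at both times by the 3 tools, with 0.00597% and 1.51% of all genes called. Again 0 of the 73 had an unadjusted p under 0.05. The median error of the interaction was 0.75, and no nuclear subunit was called for it either.

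The plastid-encoded Clp protease subunit, ATCG00670, was at 121 to 431 CPM over all libraries. Its highest group mean was 310.5 ± 108 CPM (SD, n = 3) under estradiol at 120 min, followed by 286 ± 89.4 CPM in untouched leaves of the flg22+Ed series. Its lowest was 203 ± 77.6 CPM in Mock leaves at 180 min, after 213 ± 59.8 CPM under flg22 at 300 min. Neighbours in this order differed by less than their SD. At 300 min of flg22+Ed its difference from Mock was -0.08 ± 0.32 (95% interval -0.74 to 0.57, adjusted p = 0.842), while all 12 nuclear genes listed for the Clp core and acetyl-CoA carboxylase fell, from -2.65 (BCCP2) to -0.61 (CLPR3). ATCG00430 was at 337 to 917 CPM. The annotation note words it as photosystem II reaction center protein G, a name not checked against another source, so no complex is assigned to ATCG00430 here. ATCG00430 differed by -0.21 ± 0.28 (95% interval -0.79 to 0.36). ATCG00530, the CemA-like protein, was at 58.6 to 359 CPM and differed by 0.24 ± 0.46 (95% interval -0.68 to 1.17). The L20 gene ATCG00660 differed by -0.28 ± 0.35 (95% interval -0.98 to 0.42), where all 24 listed nuclear genes of the plastid ribosome fell. None of these 4 was called at 300 min.

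Chloroplast genes moved together from library to library. Over the 60 libraries the median Pearson r of log2 CPM was 0.45 among the 2628 pairs of the 73 genes, 0.67 among the 72 pairs of consecutive IDs and 0.47 among IDs 10 rows apart. The first 3 principal components took 43.4, 33.7 and 12.2% of the variation. These values share library, depth and library set, and are descriptions. ATCG00470 was most like ATCG00740 (r = 0.87), ATCG00820 (0.87) and ATCG00380 (0.84), and least like ATCG00020 (-0.66). In experiment 1 alone these 4 were 0.86, 0.85, 0.73 and -0.22. ATCG00820 was most like ATCG00740 (0.98) and ATCG00810 (0.95), and in experiment 1 alone these were 0.93 and 0.91 over 20 libraries. ATCG00020 was most like ATCG00560 (0.96), ATCG00140 (0.95) and ATCG00490 (0.95), which in experiment 1 alone were 0.74, 0.45 and 0.52. The Clp subunit ATCG00670 was most like ATCG00520 (0.89), ATCG01090 (0.89) and the CemA-like gene ATCG00530 (0.89), at 0.87, 0.84 and 0.82 in experiment 1.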

How the data were processed

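The submitters' processing notes name bcl2fastq 2.17.1.14, the aligner STAR 2.4.2a and the build TAIR10. Per the labels' protocols each read starts with a 5-base molecular identifier and 8 bases are trimmed. The deposited table holds the authors' raw counts per gene. Not given in the sources used here are the counting tool, strand use, the treatment of reads with several matches and the collapse of identifiers. Overlapping, antisense and repeated plastid genes are therefore uncertain.

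Libraries were grouped by treatment and time from their titles and held 1.46 to 4.67 M counts, so 3 counts are 0.64 to 2.06 CPM, and intervals cover the spread between libraries. In R 4.3.3, edgeR 4.0.16 (filterByExpr, TMM factors 0.803 to 1.15, quasi-likelihood F test) fitted 60 libraries and 20 groups at once with 40 residual degrees of freedom, and p was adjusted over 16763 genes. The pipeline was tested on simulated data without differences between experiments or library sets, so that test does not cover the spread of these chloroplast rows. Values by experiment are differences of log2(CPM + 0.5). The alternatives tried were DESeq2 1.42.0, limma-voom (limma 3.58.1), other filters, other scalings (RLE, none, nuclear genes), the experiment as a replicate block, a fit of only the groups compared, and leaving out libraries or experiments.

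Numbers pair libraries, since the design text says that they mark independent experiments. Residuals of the same experiment correlated at a median r of 0.13 over all genes and 0.59 over chloroplast genes, and those of different experiments at -0.07 and -0.33. These residuals were taken from group means and cancel within a group, so the negative values follow from the positive ones.

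The members and lists were chosen with earlier results of these data known. Named genes were the 10 chloroplast rows with the highest mean, the 3 largest rises and falls called in each comparison, and rbcL, psbA, rpoB, accD and clpP, of which only clpP could be matched to an ID. Those with an annotation note, ATCG00070, ATCG00210, ATCG00660, ATCG00820 and those named for likeness were added after their values were seen. Nuclear genes were the largest fall (or the smallest, where said) of a list, and SIG5. Results for 1 annotated chloroplast gene are not reported here.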

Additional observations from a re-analysis of the deposited data

Results flagged for a closer look

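No group had 4 or more libraries, so single libraries were not searched for as outliers within a group. For the 10 chloroplast genes called in any comparison, differences at each pair of times were searched for cases in which all 3 experiments moved one way at one time and all 3 the other way at the other, over 240 pairs. There were 6 such cases, and none of these differences between times was tested. ATCG00190 was lower under flg22 than in Mock at 120 min (-0.47) and higher at 180 min (0.56). ATCG00540 went from -0.22 to 0.71 and ATCG01120 from -0.12 to 0.65 between the same times. Under flg22+Ed ATCG00040 was at 0.81 at 120 min and -0.86 at 300 min, and ATCG00190 at 0.61 at 180 min and -0.82 at 300 min. ATCG00710 in Mock against untouched leaves was at -0.45 at 180 min and 0.10 at 300 min. The library labelled Mock at 300 min of experiment 2, which on clock genes was like untouched leaves, enters each of the 3 cases with a value at 300 min, so the sign of experiment 2 in them may not stand for 300 min. In experiment 3 the flg22 libraries of 120 and 180 min belong to different library sets, whose part was not tested.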

How the results depend on the processing

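Counts of chloroplast genes called moved under these alternatives, and the cause was not tested. The counts are given without the share of all genes called under each alternative. With the replicate block they were 2 for flg22 at 300 min, 2 and 13 for flg22+Ed at 120 and 180 min, and 1 and 11 for Mock minus untouched at 120 and 180 min, and the block moved no other count by over 1.5 times. RLE factors and DESeq2 gave 2 for flg22+Ed at 180 min, and DESeq2 gave 1 and 10 for Mock minus untouched at 120 and 180 min. Library sizes alone gave 1 for flg22+Ed at 300 min and 2 for Mock minus untouched at 180 min, and moved the median of all genes by over 0.1 in some comparisons (from -0.05 to 0.10 for flg22 at 300 min). With no filter the counts were 1 for flg22 at 180 min, 2 for flg22+Ed at 300 min and 3 for Mock minus untouched at 180 min. At 10 CPM in 3 libraries flg22 gave 1 at 180 and 1 at 300 min, and limma-voom gave 0 for flg22 at 180 min. With only the groups compared the counts were 1 for flg22 at 180 min, 2, 8 and 0 for flg22+Ed at 120, 180 and 300 min and 2 for Mock minus untouched at 120 min. Without the 4 libraries at odds on clock genes they were 2 and 1 for flg22+Ed at 180 and 300 min and 3, 11 and 2 for Mock minus untouched at 120, 180 and 300 min. With the library set term, added after the data were seen, they were 6 and 17 for flg22 at 180 and 300 min, 0, 0 and 37 for flg22+Ed at 120, 180 and 300 min, 4 and 21 for Mock minus untouched at 120 and 180 min (of these 1 and 1 were higher), and 2 for Ed minus flg22 at 300 min. Without the 4 low-total libraries, also added, they were 1 for flg22 at 300 min and 0 for flg22+Ed at 180 min.

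Leaving out an experiment or a single library gave 0 to 2 for flg22 at 180 min, 0 to 8 at 300 min, 0 to 1, 0 to 6 and 0 to 4 for flg22+Ed at 120, 180 and 300 min, and 0 to 1, 0 to 9 and 0 to 1 for Mock minus untouched at 120, 180 and 300 min. Single libraries that ended all calls were those of Mock at 180 min (experiments 1 and 2) and flg22 at 180 min (experiment 3) for flg22 at 180 min, Mock at 120 min (experiments 1 and 2) and flg22+Ed at 120 min (experiment 3) for flg22+Ed at 120 min, Mock and flg22+Ed at 180 min (experiment 2) for flg22+Ed at 180 min, and Mock at 180 min (experiments 2 and 3) for Mock minus untouched at 180 min. For flg22+Ed at 300 min the count was 1 without the Mock library of experiment 2 and 2 without the flg22+Ed library of experiment 1 or 3. For flg22 at 300 min it was 3 without the Mock library of experiment 3, for flg22 at 180 min 1 without that of experiment 3, and for flg22+Ed at 180 min 2 without that of experiment 1. For Mock minus untouched at 180 min it was 9 without the Mock library of experiment 1 and 3 without the untouched Mock-series library of experiment 3. The median chloroplast share was 3.58% without ATCG00470. None of the 14 called differences of single genes changed sign under the alternatives run. The share without rRNA and tRNA rows was not run, since those IDs are not paired with names. Depth limits rows under about 10 CPM, such as ATCG00700.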
